A study of Mus musculus with 18 samples.

Results

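A set of 9 genes that mark the path from neural stem cell to immature neuron was followed through every library of the study: Sox2, Nes, Mki67, Eomes, Neurod1, Igfbpl1, Sox11, Dcx and Stmn1. They were chosen by symbol, as the rows with these names in each count table, and make up 9 of 23238 symbols. All 9 had rows and counts in both tissues. All 9 also passed the filter on low counts in the comparisons that used both tissues, and 8 passed it in cortex alone, where Eomes did not. The mice were male C57BL/6, 7 weeks old when exposure began, and the labels name no transgene or deletion. They received urban particulate matter (UPM, a reference dust collected from city air) through the nose, suspended in phosphate-buffered saline, or the saline alone. Short-term groups were given UPM daily for 3, 5 or 7 days, and long-term groups 2 times per week for 3, 8, 12, 16 or 20 weeks. Hippocampal and cortical RNA of mice treated alike was combined and sequenced from its 3' ends as 1 library per tissue and time, which gave 18 libraries with 1 control library per tissue.

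The age of the mice grew with exposure time. The number of doses grew within the short-term groups and within the long-term groups. Dosing was daily in the former and less frequent in the latter, so by this schedule it did not grow from 7 days to 3 weeks. The labels do not give the time at which the control was taken. Because libraries of different times stand in for replicates, the spread within a class contains the differences between its times, and p-values measure only the spread between pooled libraries. The number of mice in a pool is not given in the sources used here. Libraries held 5.43 to 8.97 M counts. They fall into an early set (3, 5 and 7 days and 3 weeks, 8 libraries) and a control and late set (control and 8 to 20 weeks, 10 libraries), by the way their columns are named in the file headers. The early libraries gave a larger share of their reads to Rn45s, which encodes the precursor of ribosomal RNA (14.83% to 18.61%, against 7.75% to 12.88%). The labelled tissues were checked against defining markers: 7 of 7 genes of hippocampal neurons were higher in hippocampus and 6 of 7 genes of cortical neurons were higher in cortex.

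In the adult rodent brain, neural stem cells persist in the subgranular zone of the hippocampal dentate gyrus and in the wall of the lateral ventricle. In the dentate gyrus, radial-glia-like stem cells that carry Sox2 and nestin divide into intermediate progenitors that carry Eomes (Tbr2), which give rise to neuroblasts and immature granule neurons with doublecortin and then to mature granule neurons. The neocortex is not a main site of adult neurogenesis, but several of these genes are also transcribed there in other cells, such as Sox2 in astrocytes and Stmn1 in mature neurons. In bulk tissue, fewer cells of a type and less RNA per cell cannot be told apart.

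The genes lie on separate chromosomes, except for 2 pairs. In the GENCODE M21 annotation of GRCm38, the assembly behind mm10, Sox2 spans 34650405 to 34652461 and Nes 87971078 to 87980451 of chromosome 3, both on the plus strand. Igfbpl1 lies at 45809468 to 45826923 (minus) and Stmn1 at 134468320 to 134473843 (plus) of chromosome 4. The others are Neurod1 on chromosome 2 (79452521 to 79456751, minus), Mki67 on chromosome 7 (135689784 to 135716361, minus), Eomes on chromosome 9 (118478212 to 118486132, plus), Sox11 on chromosome 12 (27334264 to 27342574, minus) and Dcx on chromosome X (143855842 to 143933311, minus). All 9 are annotated as protein coding. Sox2 overlaps Sox2ot, a long non-coding RNA on the same strand with at most 209 counts in a library, and Neurod1 overlaps Cerkl, with at most 13, so how overlapping reads were assigned is uncertain for Sox2 and Neurod1. Eomes overlaps an antisense gene, Gm33460, and the strand setting of the counting is not given in the sources used here. Promoter windows from RefSeq on GRCm38.p6 were matched for 7 of the 9 symbols, all but Stmn1 and Igfbpl1.

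The bases upstream of 3 genes are shown because these genes differed between the tissues in opposite directions: Neurod1 and Sox11 were higher in hippocampus and Dcx was higher in cortex. Neurod1 is itself a basic helix-loop-helix factor that binds E boxes, the letters CANNTG, which are written in capitals. The letters are given 5' to 3' on the strand of the gene, for Sox11 at chr12:27342719-27342968, for Neurod1 at chr2:79456752-79456886 and for Dcx at chrX:143933312-143933469, all on the minus strand, without bases that GENCODE places inside the gene.
Sox11: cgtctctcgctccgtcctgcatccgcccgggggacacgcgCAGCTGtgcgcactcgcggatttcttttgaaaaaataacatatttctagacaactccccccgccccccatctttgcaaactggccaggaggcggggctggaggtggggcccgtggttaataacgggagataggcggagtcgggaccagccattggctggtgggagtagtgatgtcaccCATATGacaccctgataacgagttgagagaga
Neurod1: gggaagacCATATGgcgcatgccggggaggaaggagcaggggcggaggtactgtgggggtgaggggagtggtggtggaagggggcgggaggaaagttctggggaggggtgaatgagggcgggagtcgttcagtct
Dcx: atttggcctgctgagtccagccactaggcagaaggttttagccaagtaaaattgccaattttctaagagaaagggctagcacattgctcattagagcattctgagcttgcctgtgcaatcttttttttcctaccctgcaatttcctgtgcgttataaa
The Sox11 stretch held 2 E boxes and the Neurod1 stretch 1, and both contained the E box CATATG. The Dcx stretch held none. An E box (CANNTG, which reads alike on both strands) was present in 66.22% of 32851 RefSeq windows of 250 bases before a start, so its presence in a window is common. Of the 7 matched genes, the windows of Sox2, Nes, Eomes and Mki67 held none as well. The GC box GGGCGG, searched on both strands, was found in the windows of Sox11, Sox2, Nes, Neurod1 and Mki67, against 32.74% of all windows. A match of letters is a description of the sequence only.

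Sox2, the transcription factor that keeps neural stem cells undifferentiated, varied little between the libraries. Its level, as CPM (counts per M counts of a library, after scaling by the trimmed mean of M values), was 64.0 to 95.6 CPM in hippocampus (median 76.9) and 54.3 to 91.2 CPM in cortex (median 71.9). The ranges of the tissues overlap almost completely. Nes, which encodes the intermediate filament nestin of stem cells and also of vessel walls, had few reads, 6 to 75 counts per library. In hippocampus it was 7.15 CPM in the control, 9.0, 1.13 and 7.28 at 3, 5 and 7 days, and 4.41, 8.12, 9.25, 9.05 and 8.51 at 3, 8, 12, 16 and 20 weeks. The 5-day value stands apart from the rest: it rests on 6 counts, with an exact 95% Poisson interval of 0.414 to 2.46 CPM, and the next lowest library, 3 weeks, had 30 counts. In cortex Nes ran from 2.77 CPM at 3 weeks to 7.86 CPM at 3 days. The 3-week library was the lowest of the long-term libraries in both tissues. The summed level of 9 endothelial and mural genes was likewise lowest there among the long-term libraries, at 139 CPM against 181 to 284 CPM in hippocampus and 152 CPM against 155 to 176 CPM in cortex. Among the short-term libraries the order differed. In hippocampus the sum was 198 CPM at 5 days, where Nes was lowest. In cortex it was 145 CPM at 3 days, its lowest value, where Nes was highest, and 194 CPM at 5 days, its highest value. The part of these cells in the Nes values was not tested.

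Mki67, which encodes the proliferation antigen Ki-67 of dividing cells, had 3 to 46 counts per library, where a floor of 3 counts was 0.329 to 0.564 CPM over the libraries. In hippocampus it had 27 counts (3.17 CPM) in the control, 7, 11 and 14 counts at 3, 5 and 7 days (1.29, 2.07 and 2.08 CPM), and 31, 31, 27, 23 and 46 counts at 3 to 20 weeks (4.56, 3.40, 3.33, 2.78 and 5.67 CPM). All 5 long-term libraries thus lie above all 3 short-term ones, and the control lies among the long-term ones. How many of all genes separate in this way was not counted. In cortex the control had 30 counts (3.82 CPM), the 3-, 5- and 7-day libraries 3, 7 and 8 counts (0.357, 0.924 and 1.03 CPM), and the long-term libraries 16, 24, 9, 14 and 10 counts (2.11, 3.34, 1.07, 1.58 and 1.29 CPM). Again the 3 short-term libraries are the lowest, with the 12-week library (1.07 CPM) just above the 7-day one (1.03 CPM). Intervals are wide at such counts, 0.492 to 2.04 CPM at 12 weeks and 0.445 to 2.03 CPM at 7 days in cortex.

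Eomes, the T-box factor of intermediate progenitors, was the most uneven member. In hippocampus it had 14 counts in the control, 24, 62 and 0 counts at 3, 5 and 7 days, and 0, 46, 10, 7 and 0 counts at 3, 8, 12, 16 and 20 weeks. On the CPM scale these are 1.64 in the control, 4.41 and 11.7 at 3 and 5 days, 5.05 at 8 weeks, 1.23 at 12 weeks and 0.845 at 16 weeks. The 3 libraries with no count allow up to 0.446 CPM (7 days), 0.441 CPM (3 weeks) and 0.370 CPM (20 weeks) at the floor of 3 counts, and their two-sided 95% Poisson intervals reach 0.548, 0.542 and 0.455 CPM. In cortex Eomes had 14 counts at 3 days and 14 at 8 weeks (1.67 and 1.95 CPM), 4 counts in the control and at 12 weeks, 1 count at 16 weeks and 0 at 5 and 7 days and 3 and 20 weeks. The times with the most cortical reads, 3 days and 8 weeks, also had reads in hippocampus, and 7 days, 3 weeks and 20 weeks had none in either tissue.

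Neurod1, a basic helix-loop-helix factor that drives neuroblasts to become granule neurons, was 55.6 CPM in the hippocampal control, 35.4, 45.7 and 46.8 CPM at 3, 5 and 7 days, and 30.0, 37.3, 39.2, 34.4 and 49.1 CPM at 3, 8, 12, 16 and 20 weeks. The control is the highest of the 9 hippocampal libraries and 20 weeks is the next. In cortex it ranged from 17.5 CPM at 8 weeks to 37.99 CPM at 7 days, with a median of 23.9 CPM. Igfbpl1, an insulin-like growth factor binding protein-like gene marking newborn neurons, had 6 to 103 counts in hippocampus and 1 to 21 in cortex. In hippocampus it was 4.92 CPM in the control, 4.41, 8.65 and 3.87 CPM at 3, 5 and 7 days, and 2.94, 11.3, 6.16, 3.38 and 0.740 CPM at 3, 8, 12, 16 and 20 weeks. Its 8-week and 5-day libraries are the highest and its 20-week library the lowest.

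Sox11, a SoxC factor of immature neurons, ranged from 86.7 CPM (12 weeks) to 154 CPM (3 weeks) in hippocampus, with a median of 129 CPM, and from 54.3 CPM (16 weeks) to 136 CPM (7 days) in cortex, with a median of 89.6 CPM. Dcx, which encodes the microtubule-binding protein doublecortin of migrating neuroblasts, was 24.4 CPM in the hippocampal control, 14.0, 21.6 and 14.1 CPM at 3, 5 and 7 days, and 23.5, 26.1, 26.9, 33.3 and 33.9 CPM at 3, 8, 12, 16 and 20 weeks. All long-term libraries lie above all short-term ones in hippocampus, a separation whose frequency over all genes was not counted. In cortex Dcx was 47.3 CPM in the control, 27.8, 25.8 and 31.4 CPM at 3, 5 and 7 days, and 26.4, 43.8, 36.8, 28.1 and 34.5 CPM at 3, 8, 12, 16 and 20 weeks, where the classes overlap and the control is the highest. Stmn1, which encodes stathmin, a tubulin-binding protein that destabilises microtubules, was 162 to 352 CPM in hippocampus (median 247) and 471 to 561 CPM in cortex (median 527). No hippocampal library reached the lowest cortical one.

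**Figure D1:**
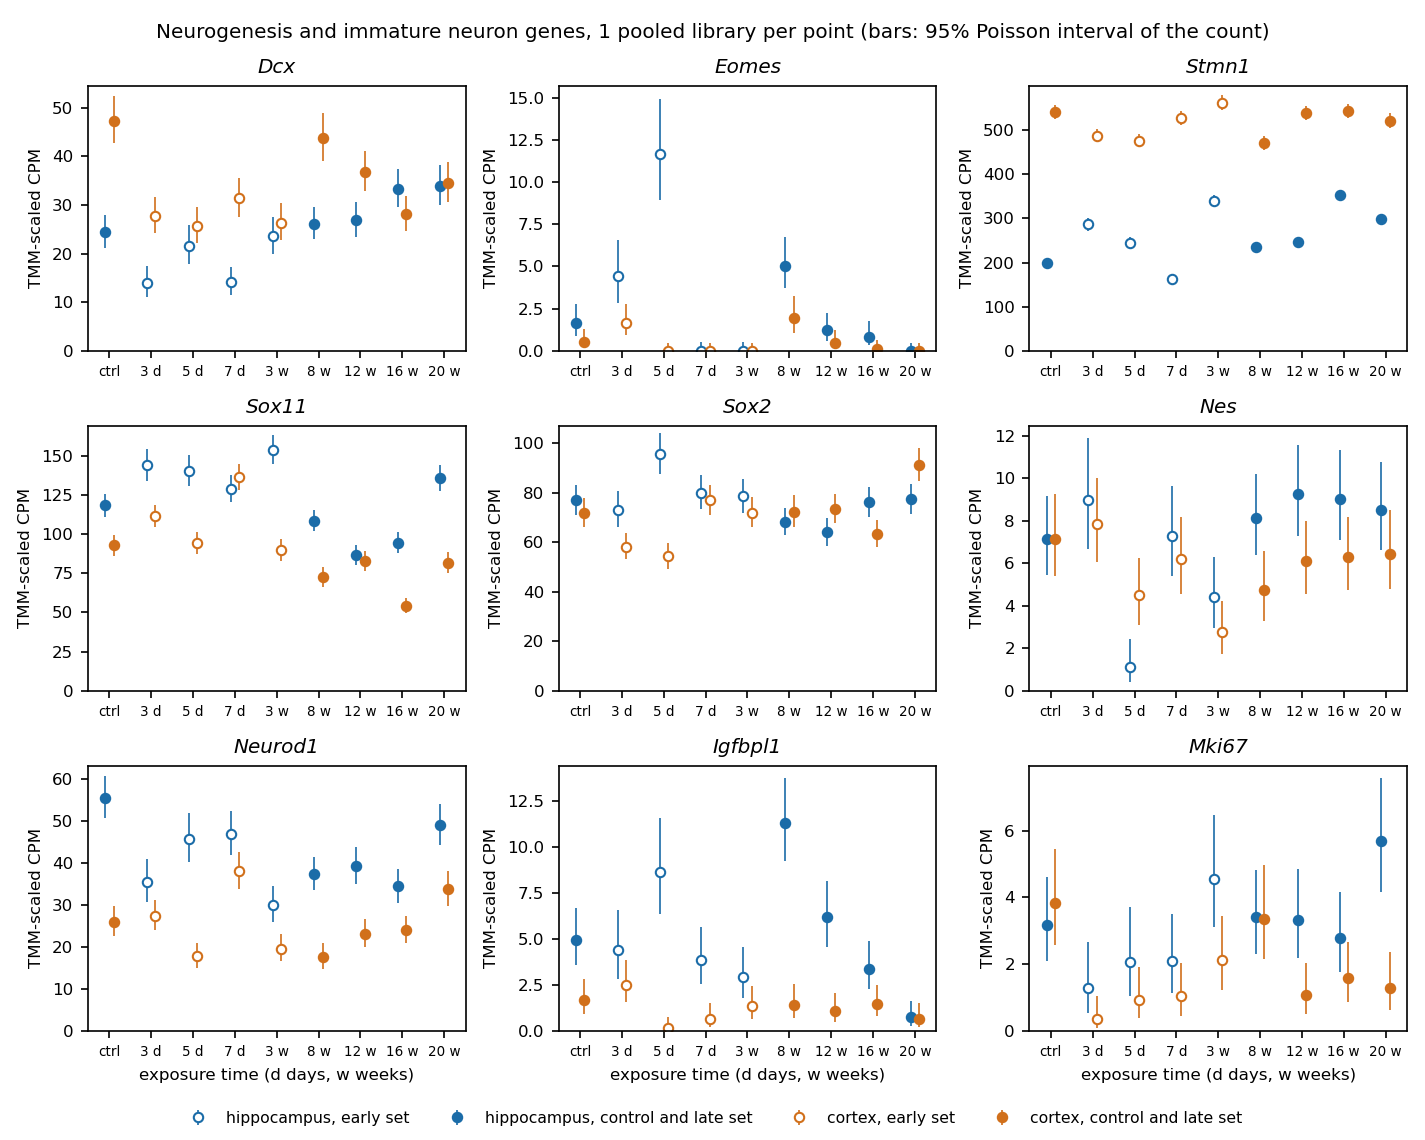
Level of each of the 9 genes in scaled CPM (y axis, starting at 0) by exposure time (x axis, control first). Each point is 1 pooled library, blue for hippocampus and orange for cortex, open for the early set and filled for the control and late set, with exact 95% Poisson intervals that cover counting error only. Stmn1 separates the tissues at every time, Eomes is at 0 in both tissues at 7 days, 3 weeks and 20 weeks, and Dcx in hippocampus is lowest at 3 and 7 days (14.0 and 14.1 CPM).

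Hippocampus and cortex differed for 5 of the 9 genes. Neurod1, Igfbpl1 and Sox11 were higher in hippocampus, and Stmn1 and Dcx were higher in cortex. The comparison had 9 libraries per tissue and exposure time as a factor, and used the quasi-likelihood F test of edgeR with Benjamini-Hochberg adjustment over all genes. It called 16.9% of 14865 genes, 7.6% higher and 9.26% lower in hippocampus, against 5 of 9 members, 3 higher and 2 lower. The members' median log2 difference was 0.47, and that of all genes tested was -0.0048.

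Igfbpl1 had the largest difference among the called members, with 5.15 ± 3.18 CPM in hippocampus and 1.203 ± 0.689 CPM in cortex (mean ± SD, n = 9 each), a log2 difference of 1.97 ± 0.42 (SE; edgeR adjusted p = 0.00285), and it was higher in hippocampus at 9 of 9 times. Neurod1 was 41.5 ± 8.24 CPM against 25.2 ± 7.04 CPM, also higher in hippocampus at 9 of 9 times, by 0.74 ± 0.11 on the log2 scale (edgeR adjusted p = 0.000149). Its difference at single times ran from 0.30 at 7 days to 1.36 at 5 days. Sox11 was 123 ± 23.0 CPM against 90.6 ± 23.2 CPM, higher in hippocampus at 8 of 9 times (log2 difference 0.47 ± 0.09, edgeR adjusted p = 0.0015), with 7 days as the exception at -0.08.

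Stmn1 showed the opposite and most regular pattern. It was 263 ± 62.2 CPM in hippocampus and 519 ± 32.6 CPM in cortex, lower in hippocampus at 9 of 9 times, with a log2 difference of -1.01 ± 0.10 (edgeR adjusted p = 1.74e-06). The difference was widest at 7 days (-1.70) and in the control (-1.44) and narrowest at 16 weeks (-0.63). The spread was wider in hippocampus, where the lowest value was 162 CPM at 7 days and the highest 352 CPM at 16 weeks. Cortical neuron markers moved with these values: their summed level in hippocampus (7 genes) was highest at 16 weeks (1820 CPM), and was 1668, 1489 and 1140 CPM at 3 weeks, 20 weeks and 3 days, which are the 4 libraries with the most Stmn1 (352, 339, 298 and 286 CPM). In the other 5 hippocampal libraries the sum was 629 to 799 CPM, with 689 CPM in the control and 648 CPM at 7 days, and Stmn1 was 162 to 247 CPM. In cortex the sum was 2588 to 3919 CPM. Its part in the Stmn1 and Dcx values was not tested. Dcx was 24.2 ± 7.08 CPM in hippocampus and 33.5 ± 7.80 CPM in cortex, lower in hippocampus at 8 of 9 times (log2 difference -0.49 ± 0.14, edgeR adjusted p = 0.0197). At 16 weeks it was higher in hippocampus (0.25) and at 20 weeks the tissues were level (-0.03). These are among the hippocampal libraries with high cortical neuron sums (1820 and 1489 CPM). Of the others with high sums, 3 weeks (1668 CPM) had a Dcx difference of -0.16 and 3 days (1140 CPM) of -0.98. Dcx at 3 days was the lowest in hippocampus (14.0 CPM). At 8 and 12 weeks the hippocampal sums were 665 and 799 CPM, and Dcx was 26.1 and 26.9 CPM. The call for Dcx was lost without the control or the 8-week library of either tissue, with adjusted p up to 0.0585, and with scaling by total counts alone (-0.42, adjusted p = 0.0532).

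The other 4 genes did not pass. Eomes was 2.76 ± 3.83 CPM in hippocampus and 0.524 ± 0.758 CPM in cortex, higher in hippocampus at 6 of 9 times and at 0 in both at the other 3 (log2 difference 2.18 ± 0.71, edgeR adjusted p = 0.0509). Mki67 was 3.15 ± 1.34 CPM against 1.72 ± 1.16 CPM, higher in hippocampus at 8 of 9 times with the control as the exception (0.98 ± 0.33, edgeR adjusted p = 0.0505). Both lie close to the threshold: DESeq2, total counts alone and a mean of at least 10 counts called both, RLE factors called Mki67, and limma-voom and no filter called Eomes. Nes (0.25 ± 0.22, edgeR adjusted p = 0.525) and Sox2 (0.13 ± 0.09, edgeR adjusted p = 0.408) had the smallest differences of the 9.

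Within the control and late set alone, 2912 of 14465 genes were called by edgeR. Among them were Stmn1, Sox11, Neurod1, Igfbpl1 and Eomes, but not Dcx (-0.39, adjusted p = 0.0956). Within the early set alone, with 4 libraries per tissue, 656 of 14036 genes were called, and Stmn1 was the 1 member called. The differences there were -0.61 for Dcx, 0.43 for Sox11, 0.68 for Neurod1 and 2.25 for Igfbpl1, each in the direction of the full comparison. Markers of several other cells also moved with tissue. Of 6 Cajal-Retzius genes tested, markers of cells that also carry Eomes, 3 were higher in hippocampus (median log2 difference 2.02), and the sum of all 7 was 45.3 to 76.3 CPM there and 32.2 to 59.2 CPM in cortex. Of 6 thalamic genes 2 were higher (median 0.52), with sums of 59.7 to 273 CPM and 41.1 to 123 CPM. Of 9 choroid plexus genes 1 was higher and all 9 differences were positive (median 1.21), with sums of 170 to 8444 CPM and 256 to 5555 CPM. The summed level of 8 genes of oligodendrocyte precursors, cells that also express Sox2, was 198 to 295 CPM in hippocampus and 164 to 251 CPM in cortex, with 5 of 8 higher in hippocampus and all 8 detected in every library. The 6 astrocyte genes were 3542 to 4699 CPM in hippocampus and 3583 to 4672 CPM in cortex, with 2 of 6 higher in hippocampus. The 10 striatal genes were 112 to 273 CPM in hippocampus and 257 to 1581 CPM in cortex, with all 8 that could be tested lower in hippocampus. Their part in the members' differences was not tested.

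**Figure D2:**
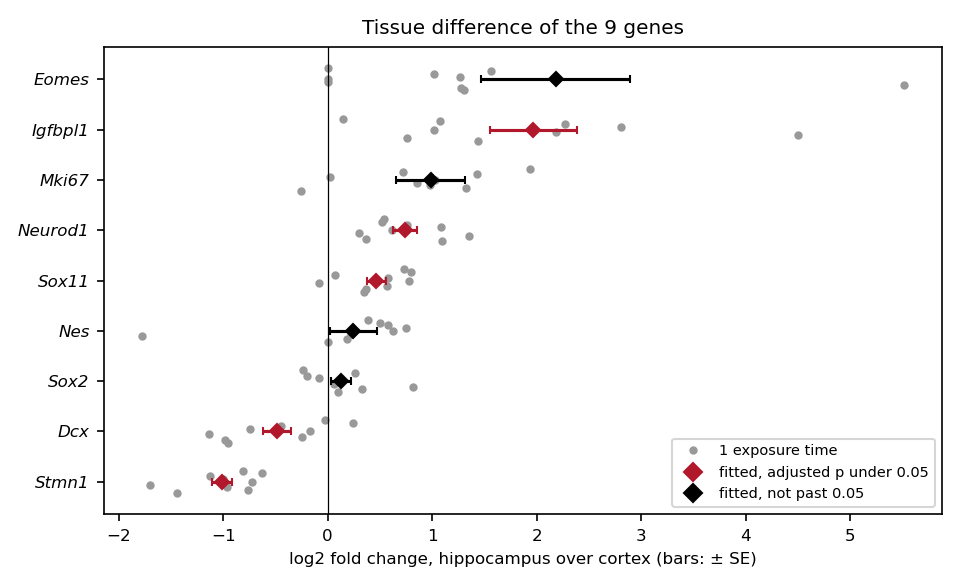
Difference between hippocampus and cortex on the log2 scale (x axis, positive where hippocampus is higher) for each gene (rows). Grey points are the 9 exposure times, and diamonds are the edgeR estimate with its standard error, red where the adjusted p is under 0.05. Stmn1 lies below 0 at every time (-1.70 to -0.63), and Neurod1 (0.30 to 1.36) and Igfbpl1 (0.14 to 4.502) lie above 0 at every time.

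Lists of other genes of the same lineage show where the members sit. Of 17 genes of stem and radial-glia-like cells, 10 were higher in hippocampus and none lower (median log2 difference 0.43). They included Gfap, the filament gene of astrocytes and radial-glia-like cells (1.57 ± 0.14 SE), Hopx, a homeodomain gene of quiescent stem cells (1.005 ± 0.11), Thrsp (0.72 ± 0.10) and the SoxE factor gene Sox9 (0.43 ± 0.07). Of 8 genes of mature granule neurons, 5 were higher and none lower (median 1.74). The largest were Dsp, a desmosome gene (6.05 ± 0.41), C1ql2, a synaptic organiser of mossy fibres (4.16 ± 0.30), Tdo2, a tryptophan-degrading enzyme (3.05 ± 0.41), and Prox1, the homeobox factor of granule cell identity (2.21 ± 0.20). Dsp, C1ql2 and Prox1 also stand in the hippocampal neuron list used to check the tissues, so their direction restates that check.

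The stages between these ends were less uniform. Of 6 tested genes of intermediate progenitors none passed (median 0.11). Of 29 tested genes of immature neurons, 8 were higher and 9 lower in hippocampus (median 0.17), the mixed pattern that Sox11, Dcx and Stmn1 also show. Those with the smallest p were higher: Plxna4, a semaphorin co-receptor (0.90 ± 0.10), Bhlhe22 (0.84 ± 0.10) and Neurod6 (1.08 ± 0.13), both neuronal basic helix-loop-helix factors, and Dclk2, a relative of doublecortin (0.55 ± 0.08). Neurod6 also stands in the list of hippocampal neuron markers.

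Cell cycle genes and niche signals were mostly not called. Of 26 cell cycle genes tested 2 were higher, the kinetochore gene Cenpf (0.80 ± 0.22) and the cyclin D2 gene Ccnd2 (0.30 ± 0.08), and 1 was lower, the inhibitor gene Cdkn1a (-0.63 ± 0.16). Of 35 niche signals and receptors tested 6 were higher and 2 lower, next to 16.9% of all genes called in either direction. Higher were the receptor genes Fgfr1 (1.40 ± 0.12) and Epha4 (0.54 ± 0.11), the neurotrophin gene Bdnf (0.56 ± 0.10) and the ligand gene Wnt7b (0.56 ± 0.12). The lists were assembled with earlier results of these data known, and nothing is claimed for them beyond these counts.

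**Figure D3:**
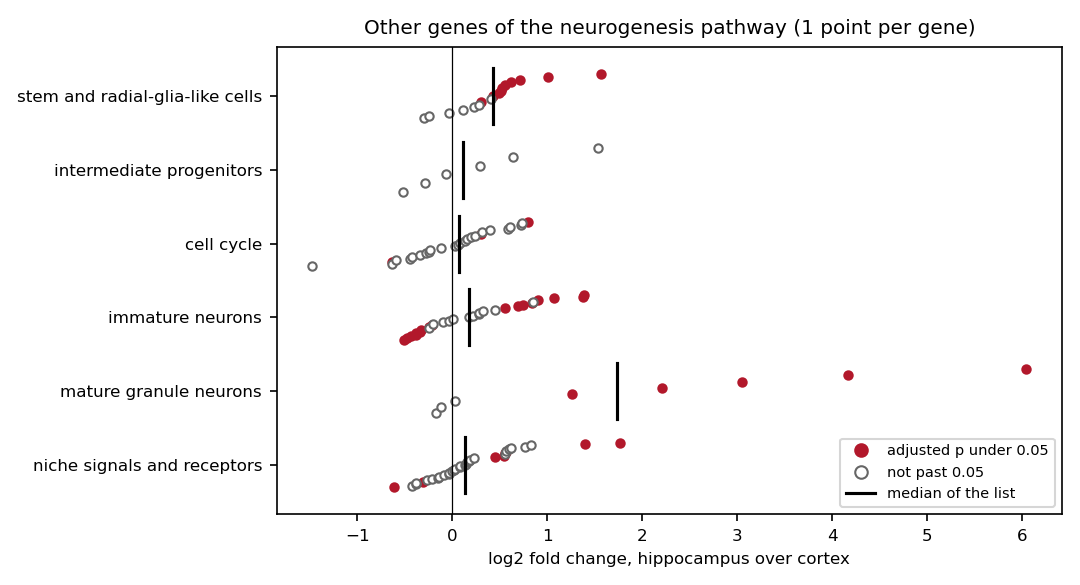
Log2 difference between hippocampus and cortex (x axis, positive where hippocampus is higher) for the genes of each lineage list (rows), 1 point per gene, red where the edgeR adjusted p is under 0.05, with a black bar at the median of the list. Mature granule neuron genes reach 6.05, 10 of 17 stem and radial-glia-like genes are red on the positive side, and immature neuron genes are red on both sides (8 and 9).

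No member was called between UPM and control libraries. With 16 exposed and 2 control libraries and tissue as a covariate, edgeR called 0 of 14865 genes (0%) and 0 of the 9 members, with 272 genes and none of the members at an unadjusted p under 0.05. DESeq2 and limma-voom also called 0 genes, with 350 and 388 at an unadjusted p under 0.05. The members' log2 differences ran from -0.79 ± 0.55 (SE) for Mki67 to 0.46 ± 1.62 for Eomes. The others were -0.31 ± 0.26 for Dcx, -0.28 ± 0.23 for Neurod1, -0.21 ± 0.67 for Igfbpl1, -0.18 ± 0.42 for Nes, -0.02 ± 0.16 for Sox2, 0.02 ± 0.23 for Sox11 and 0.17 ± 0.19 for Stmn1, with edgeR adjusted p of 0.98 or more for each. Some of these rest on 1 control library. Without the cortical control the values were -0.00050 for Mki67 and -0.0072 for Dcx, and without the hippocampal one -1.38 and -0.57, while Neurod1 was -0.48 and -0.047. The standard errors show what the 2 control libraries can resolve, from 0.16 for Sox2 to 1.62 for Eomes.

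Library by library, the control lay at the edge of its tissue for Dcx and Mki67 in cortex and Neurod1 in hippocampus, and for no other member and tissue. How many of all genes have their control at an edge was not counted. For Dcx in cortex all 8 exposed libraries were below the control (47.3 CPM, Poisson interval 42.7 to 52.4), by 0.11 on the log2 scale at 8 weeks to 0.87 at 5 days. In hippocampus 4 were below (3 to 7 days and 3 weeks, all early set) and 4 above (8 to 20 weeks). Mki67 in cortex was below the control at all 8 times, from -2.72 on the log2 scale at 3 days to -0.18 at 8 weeks, whereas in hippocampus 4 libraries were above and 4 below.

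Neurod1 was at the edge in the other tissue. In hippocampus all 8 exposed libraries were below the control, by 0.18 on the log2 scale at 20 weeks to 0.88 at 3 weeks, and in cortex 3 were above and 5 below. Stmn1 in hippocampus was above the control (199 CPM) in 7 of 8 exposed libraries, most at 16 weeks (0.82) and 3 weeks (0.77), with 7 days the exception (-0.29). The cortical neuron sum was 689 CPM in the control library, 1820 and 1668 CPM at 16 and 3 weeks and 648 CPM at 7 days, and its part was not tested. In cortex Stmn1 stayed within -0.20 to 0.05 of its control. Each of these statements rests on 1 control library, so the distance between 2 libraries has no replicate check, and the Poisson intervals cover counting error only.

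**Figure D4:**
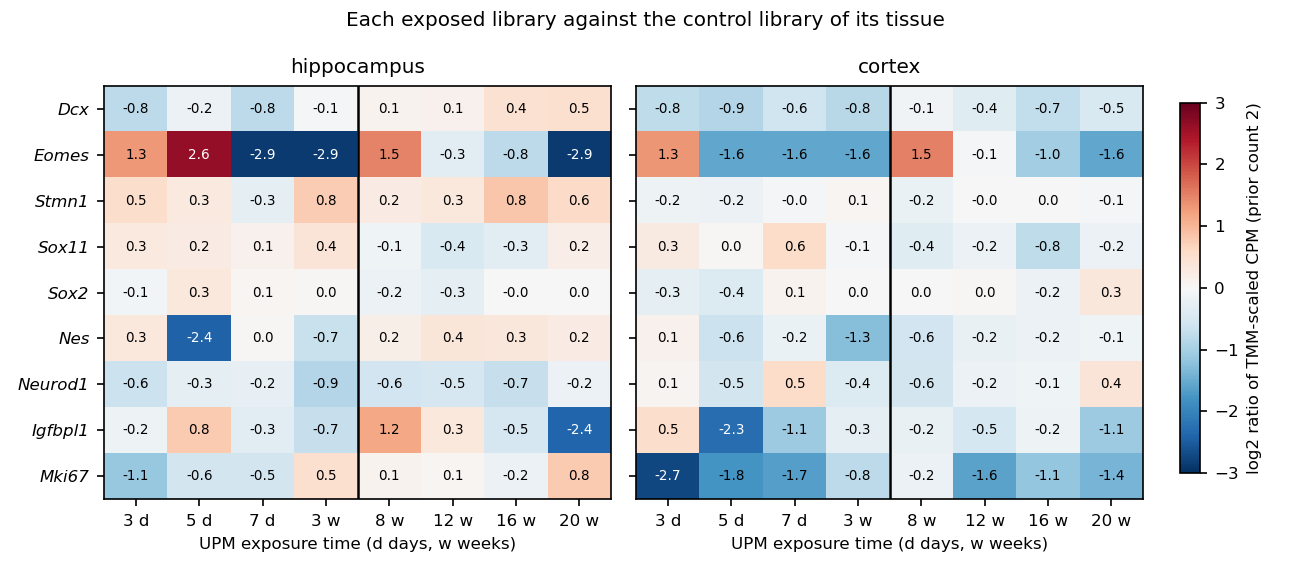
Heat map of the log2 ratio of each exposed library to the control library of its tissue, with a prior count of 2, for the 9 genes (rows) by exposure time (columns) in hippocampus (left) and cortex (right). Red is above and blue below the control, and the vertical line separates the early set from the 8- to 20-week libraries. Dcx in hippocampus lies below 0 left of the line (-0.79 to -0.05) and above 0 right of it (0.10 to 0.47), while in cortex it lies below 0 throughout.

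No gene of the lineage lists passed in this comparison either. Of 17 stem and radial-glia-like, 6 intermediate progenitor, 29 immature neuron, 26 cell cycle, 8 mature granule neuron and 35 niche genes tested, 0 were called. The smallest p in each list belonged to Id4, a repressor of differentiation in stem cells (0.48 ± 0.27), Neurod4 (1.15 ± 1.18), Plxna4 (-0.41 ± 0.20), the replication clamp gene Pcna (0.69 ± 0.27), Prox1 (-0.50 ± 0.33) and the ephrin receptor gene Ephb2 (-0.57 ± 0.24), each with an edgeR adjusted p of 0.98. Pcna was the 1 cell cycle gene with an unadjusted p under 0.05. It was 8.21 CPM in the hippocampal control and 7.64 CPM in the cortical one, and 7.77 to 16.5 CPM and 10.3 to 18.5 CPM in the exposed libraries.

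Long-term and short-term exposure were compared within each tissue, 5 against 3 libraries. In hippocampus edgeR called 0.273% of 13908 genes, 0.209% higher and 0.0647% lower after long-term exposure, and 0 of the 9 members. Dcx came closest, with 14.0, 21.6 and 14.1 CPM after short-term and 23.5 to 33.9 CPM after long-term exposure, a log2 difference of 0.79 ± 0.21 (SE, edgeR adjusted p = 0.0707). The classes do not overlap. Of 7 cortical neuron markers none was called in this contrast but all 7 differences were positive (median 0.69), and the median of 7 hippocampal neuron markers was -0.31, against 0.021 over all genes. Dcx was higher in cortex than in hippocampus, and the part of these cells in its difference was not tested. The difference passed without the 3-week library (1.04, edgeR adjusted p = 0.0164), where class and library set coincide. That fit called 2254 of 13861 genes. The difference also passed in edgeR with scaling by total counts alone (adjusted p = 0.0421), which called 607 of 13908 genes. With DESeq2 it passed as well (adjusted p = 0.0161), among 1154 genes called. Mki67 did not overlap either (1.29 to 2.08 against 2.78 to 5.67 CPM, 1.11 ± 0.46, edgeR adjusted p = 0.190). How many of all genes separate without overlap was not counted, and 3015 of 13908 had an unadjusted edgeR p under 0.05.

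The classes go with the library sets, since all short-term libraries and the 3-week library are of the early set. For Dcx the 5 hippocampal libraries of the control and late set, control included, lie above the 4 of the early set (24.4 to 33.9 against 14.0 to 23.5 CPM). The sets overlap for Dcx in cortex and for every other member in both tissues. How many of all genes separate by library set was not counted. Exposure class and library set can be told apart only through the 3-week library, which at 23.5 CPM lies above the short-term libraries and below the control. When 3 weeks alone was set against 3, 5 and 7 days, 0 genes were called (291 at an unadjusted p under 0.05). In hippocampus Eomes (-1.86 ± 1.23), Stmn1 (0.35 ± 0.19), Sox11 (-0.25 ± 0.18), Sox2 (-0.19 ± 0.13), Nes (0.43 ± 0.49), Neurod1 (-0.17 ± 0.18) and Igfbpl1 (-0.19 ± 0.64) did not pass, with edgeR adjusted p of 0.313 or more.

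In cortex edgeR called 0 of 13762 genes (0%) and 0 of the 8 members tested, though 2921 genes had an unadjusted p under 0.05. DESeq2 called 726 genes there and limma-voom 9. Sox11 was 111, 94.4 and 136 CPM after 3, 5 and 7 days and 89.6, 72.5, 82.8, 54.3 and 81.7 CPM after 3 to 20 weeks, all long-term libraries below all short-term ones. Its log2 difference was -0.59 ± 0.17 (SE, edgeR adjusted p = 0.117). It passed without the 3-week library (-0.65, edgeR adjusted p = 0.0108), where class and library set coincide. That fit called 3093 of 13657 genes. Sox11 also passed with DESeq2 (adjusted p = 0.0421), as 1 of its 726 called genes. The cortical control (92.8 CPM) lies below the short-term and above the long-term libraries. For Mki67 the classes did not overlap (1.27 ± 0.58, edgeR adjusted p = 0.236), and for Dcx they did (0.25 ± 0.18, edgeR adjusted p = 0.432). The share of all genes whose classes do not overlap in cortex was not counted.

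Whether the tissues differ in this contrast was tested with an interaction term over 16 exposed libraries. The edgeR test called 0 of 14427 genes (0%) and 0 of 9 members, with 1124 genes at an unadjusted p under 0.05, against 25 called by DESeq2 and 0 by limma-voom. Sox2 had the smallest p of the members: its long-term minus short-term difference was -0.19 in hippocampus and 0.23 in cortex, an interaction of -0.43 ± 0.21 (edgeR adjusted p = 0.640). Dcx followed with 0.53 ± 0.27 (edgeR adjusted p = 0.665). In the lineage lists, Vegfa, an angiogenic and neurogenic growth factor gene, was the 1 gene called for long-term against short-term exposure in hippocampus (1.09 ± 0.19, edgeR adjusted p = 0.0487). It was 23.9, 22.4 and 23.5 CPM at 3, 5 and 7 days, 33.2 to 60.8 CPM at 3 to 20 weeks and 47.0 CPM in the control. Its call did not hold with limma-voom (adjusted p = 0.0715), and as each of the 8 libraries was left out it held in 1 case, without 3 weeks (adjusted p 0.000478 to 0.129, log2 differences 0.99 to 1.204). No list gene was called in cortex.

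Over the weeks of long-term exposure, a slope was fitted on 10 libraries of both tissues with tissue as a covariate and expressed per 10 weeks. The edgeR test called 3.46% of 14087 genes, 1.01% rising and 2.45% falling, and 0 of the 9 members. Neurod1 came closest, with 30.0, 37.3, 39.2, 34.4 and 49.1 CPM in hippocampus and 19.5, 17.5, 23.1, 23.9 and 33.8 CPM in cortex at 3, 8, 12, 16 and 20 weeks (slope 0.39 ± 0.10 SE, edgeR adjusted p = 0.0513). The 20-week library is the highest of the 5 in both tissues. DESeq2 called it (adjusted p = 0.0135), and it passed without the 8-week library of either tissue, but not with the 8- to 20-week libraries alone (0.47, adjusted p = 0.258). Against the controls, which were 55.6 and 26.0 CPM, the 20-week value was lower in hippocampus and higher in cortex.

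Nes had a slope of 0.56 ± 0.18 (edgeR adjusted p = 0.0835) that was 0.18 without the 3-week libraries (adjusted p = 0.834). Eomes had a slope of -1.71 ± 1.18 (edgeR adjusted p = 0.375), and with the 8- to 20-week libraries alone it was -4.45 ± 0.64 and passed (adjusted p = 0.0157). There the counts were 46, 10, 7 and 0 in hippocampus and 14, 4, 1 and 0 in cortex at 8, 12, 16 and 20 weeks, lower at each later time in both tissues. The 3-week libraries, with 0 counts in both tissues, do not follow that order, and the fitted slope depends on the prior count because the last libraries are at 0. Igfbpl1 over the same 4 times was 11.3, 6.16, 3.38 and 0.740 CPM in hippocampus. In cortex it was 1.39, 1.075, 1.47 and 0.644 CPM (10, 9, 13 and 5 counts), not lower at each later time. Its slope over all 10 libraries, 3 weeks included, was -0.86 ± 0.50 (edgeR adjusted p = 0.291).

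In the lists, 3 of 29 immature neuron genes and 1 of 17 stem and radial-glia-like genes fell with the weeks, and 1 of 8 granule neuron and 2 of 34 niche genes rose, by edgeR with a threshold of 0.05 on the adjusted p. Falling were the stathmin relatives Stmn4 (-0.54 ± 0.09) and Stmn3 (-0.44 ± 0.10), the tubulin gene Tubb2b (-0.69 ± 0.13) and Thrsp (-0.49 ± 0.11). Rising were Plk5, a polo-like kinase family gene of differentiated neurons (1.35 ± 0.19), Vegfa (0.51 ± 0.10) and the receptor gene Igf1r (0.43 ± 0.09). Stmn1 itself had a slope of 0.01 ± 0.10. These slopes include the 3-week libraries of the early set: Tubb2b was 585 CPM in hippocampus and 361 CPM in cortex at 3 weeks, but 394 and 204 CPM in the controls. With the 8- to 20-week libraries alone 40 genes were called over the whole table, in place of 487, and none of the 7 list genes was among them (Plk5 0.91, adjusted p = 0.0956). Without the 3-week library of either tissue 0 genes were called, so every list call was lost. All 7 were called without the 8-week library of either tissue, and 1 to 3 without a 12-, 16- or 20-week library. With exposure time as a block in limma-voom 1 of the 7 was called, and with a term for the library set 0 of the 7.

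Eomes and Igfbpl1 varied together within hippocampus. Both were highest at 5 days (11.7 and 8.65 CPM) and 8 weeks (5.05 and 11.3 CPM). Centred on the tissue means, their log2 levels had a Pearson r of 0.72 over the 18 libraries, given as a description, since libraries share depth and set and both genes have few counts. Dcx and Mki67 had r of 0.67, which was 0.54 when centred on library set as well. All other pairs lay between -0.42 and 0.44. With the set centred as well, Sox2 and Neurod1 had r of 0.56 and Sox11 and Neurod1 0.50, and Dcx and Sox11 went from -0.28 to 0.51.

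Markers of neighbouring tissue were also high at 8 weeks, when Eomes was high in both tissues and Igfbpl1 in hippocampus only. Cortical Igfbpl1 was 1.39 CPM at 8 weeks, below the control (1.65 CPM) and 3 days (2.50 CPM). The summed level of 6 thalamic genes was 172 CPM at 5 days and 273 CPM at 8 weeks in hippocampus, against 59.7 to 100 CPM in the other 7 libraries. In cortex it was 123 CPM at 8 weeks and 41.1 to 66.8 CPM elsewhere. At 3 days Eomes was 4.41 CPM in hippocampus and 1.67 CPM in cortex. The thalamic sums there were 59.7 CPM, the lowest in hippocampus, and 66.8 CPM. The summed level of 9 choroid plexus genes was highest at 3 days in both tissues (8444 CPM in hippocampus and 5555 CPM in cortex). At 5 days in hippocampus, where Eomes was highest, that sum was 454 CPM, and its part in the Eomes values was not tested. Shox2, a homeobox gene of the thalamus, had 36.3 CPM at 8 weeks in hippocampus and 21.7 CPM in cortex, but 0.376 CPM in hippocampus at 5 days, where Calb2 (96.3 CPM) was the highest of the list. Calb2, the calretinin gene, stands in the lists of thalamic and of immature neurons. Without it the other 5 thalamic genes summed to 212 CPM at 8 weeks, 75.6 CPM at 5 days, 73.7 CPM at 20 weeks and 38.7 to 57.4 CPM in the other hippocampal libraries, and to 116 CPM at 8 weeks and 32.3 to 50.05 CPM elsewhere in cortex, so on these genes only the 8-week libraries stand out.

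Eomes is also carried by mitral and tufted cells of the olfactory bulb and by Cajal-Retzius cells. The summed level of 6 other olfactory bulb genes was 27.1 CPM in hippocampus at 8 weeks and 3.86 to 11.02 CPM in the other hippocampal libraries, with 7.34 CPM at 5 days, where Tbx21, Cdhr1 and Th were at 0. Tbx21, a defining gene of mitral and tufted cells, was at 0.220 CPM at 8 weeks in hippocampus. The 7 Cajal-Retzius genes summed to 67.2 CPM at 5 days, 76.3 CPM at 8 weeks and 75.5 CPM at 20 weeks in hippocampus, and 45.3 to 59.7 CPM in the others. Eomes had 62 counts at 5 days, 46 at 8 weeks and 0 at 20 weeks there. The part of these cells in the levels of Eomes and Igfbpl1 was not tested.

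**Figure D5:**
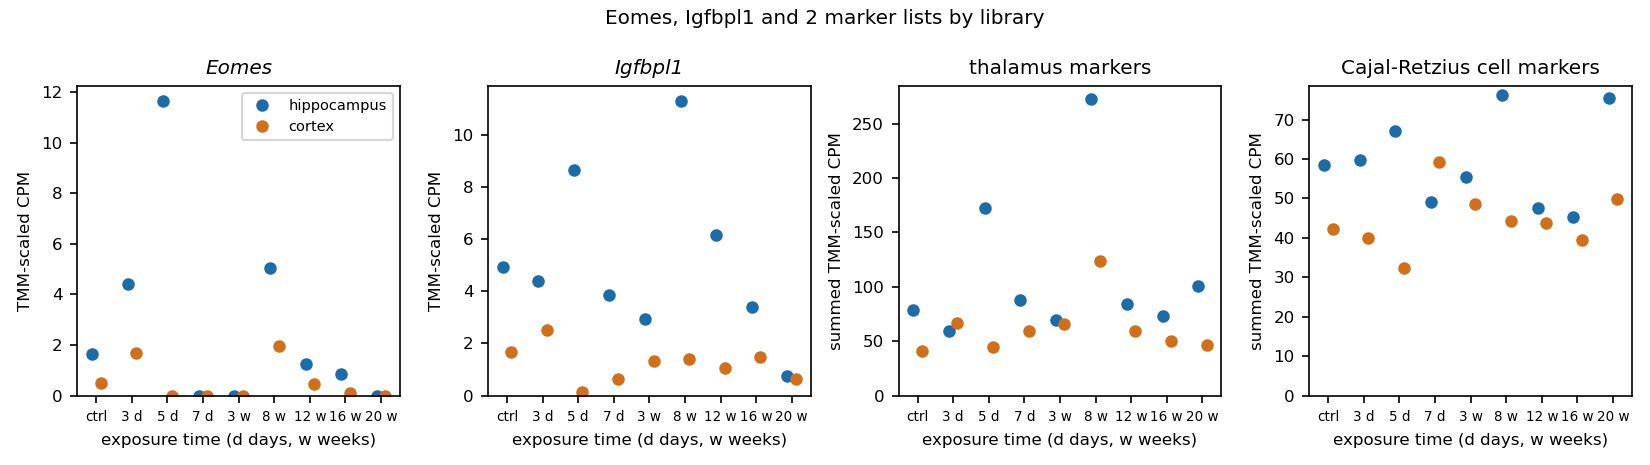
Eomes and Igfbpl1 in CPM, and the summed CPM of 6 thalamic and 7 Cajal-Retzius cell markers (y axes, starting at 0), by exposure time (x axis, control first), with 1 point per library, blue for hippocampus and orange for cortex. In hippocampus the 5-day and 8-week libraries stand out for both genes and for the thalamic sum (172 and 273 CPM), of which Calb2 alone gives 96.3 CPM at 5 days.

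The genes with the most similar course to each member were sought among 10952 genes with a mean of at least 5 CPM, by the Pearson correlation of log2 CPM over 18 libraries after centring on the mean of each tissue. This level was reached by 6 members, and not by Eomes, Igfbpl1 or Mki67. Dcx was closest to Dicer1 (0.90), Med16 (0.89) and Nyap2 (0.89), values that dropped to 0.76, 0.73 and 0.77 when the library set was centred as well. Stmn1 was closest to Sema3a (0.92), a repulsive guidance cue, Bean1 (0.90) and Cobl (0.89), with 0.93, 0.91 and 0.91 after centring on the set.

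Sox11 was closest to Hrk (0.88), Marcksl1 (0.86) and Gap43 (0.85), the last 2 being members of the immature neuron list that act on the cytoskeleton of growing axons. Neurod1 was closest to Pcdh19 (0.83), Tubb2a (0.81) and Syn2 (0.80). Nes followed Hmgcll1 (0.95), Lats1 (0.91) and H2-T24 (0.90), and Sox2 followed Fdps (0.80), Exosc4 (0.77) and Phlda1 (0.75). These are the highest of many correlations over libraries that share tissue dissections and depth, and are given without a test.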

How the data were processed

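The 18 libraries were made from pooled total RNA with an oligo-dT primed 3' kit and read as single-end 75-base reads, per the labels' protocols. The authors deposited 1 table per library with unnormalized counts of reads for each gene symbol. Per the submitters' processing notes, Bowtie2, bedtools and edgeR were used, with the build mm10. Versions of these tools, the annotation, strandedness and the handling of multiply mapped reads are not given in the sources used here. Each table held 23282 lines and 23238 symbols. Repeated symbols were summed, and 27 symbols turned into dates in 2 tables were restored from the row order of the others.

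Groups followed the labels. Counts were scaled by TMM, filtered with filterByExpr and tested on all genes in R 4.3.3 with edgeR 4.0.16 (quasi-likelihood F test), with Benjamini-Hochberg adjustment, a threshold of 0.05, and standard errors taken from the log2 fold change and F. Log2 values of single libraries used a prior count of 2. The scripts were tested on simulated data. Exact 95% Poisson intervals and the floor of 3 counts cover counting error only.

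The 9 members and all lists were chosen with earlier results of these data known. Besides the members, the text names per list and comparison up to 4 genes past the threshold with the smallest p, or the 1 with the smallest p where none passed, and 3 genes most like each member with a mean of at least 5 CPM. The gene that this rule names for the intermediate progenitor list between the tissues is not reported here. Marker genes of other cells and controls named beside a result were chosen after their values were seen. Time labels are not replicate numbers. Deviations of the 2 tissues of 1 time correlated with r of -0.15 to 0.15, and those of different times with -0.19 to 0.16, so times were not treated as pairs, except as a factor in the comparison of tissues. Alternatives were DESeq2 1.42.0, limma-voom (limma 3.58.1), no filter, a mean of at least 10 counts, RLE factors, total counts alone, each library left out, each library set alone, exposure time as a block, and a term for the library set. This term and the thalamic sum without Calb2 were added after seeing the data.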

Additional observations from a re-analysis of the deposited data

Results flagged for a closer look

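In 3 of 18 groups of 5 long-term libraries, 1 library stood apart from the other 4 by more than Dixon's 95% critical value (0.71 of the range for 5 samples). Chance flags about 0.9 of 18 groups. Eomes was high at 8 weeks in both tissues: 5.05 CPM in hippocampus, where the next library had 1.23 CPM, and 1.95 CPM in cortex, where the next had 0.478 CPM. Summed thalamic markers were highest at 8 weeks in both tissues as well (273 and 123 CPM), and their part in the Eomes values was not tested. Nes was low in hippocampus at 3 weeks, with 4.41 CPM against 8.12 CPM in the next library. The 3-week library is the 1 long-term hippocampal library of the early set.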

How the results depend on the processing

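Over 1139 member values recomputed under the alternatives, 1049 kept their direction and call, 11 lost a call, 28 gained one and 51 changed sign, none of the last among values called in either fit. The calls of Stmn1, Sox11, Neurod1 and Igfbpl1 between the tissues held under every left-out library, scaling and tool. Between the tissues 4 to 6 members were called as each library was left out, beside 1907 to 2460 genes in all. With 3 days to 3 weeks only it was 1 member beside 656 genes in all. For long-term against short-term exposure the count was 0 to 1 as each library was left out in hippocampus and 0 to 1 in cortex. It was 1 in hippocampus with total counts alone, 1 with DESeq2, and 1 in cortex with DESeq2. For the slope it was 0 to 1 over left-out libraries, 1 with total counts alone, 1 with no filter, 2 with DESeq2, and 1 with 8 to 20 weeks only or with a term for the library set. Counts over all genes also moved: in hippocampus 38 became 1 with RLE factors, 607 with total counts alone, 1154 with DESeq2, 256 with no filter, 1 with a mean of at least 10 counts, 0 with limma-voom, 2254 without 3 weeks, 1 without 20 weeks and 0 without any other library; in cortex 0 became 726 with DESeq2, 60 with no filter, 9 with limma-voom and 3093 without 3 weeks; the slope's 487 became 183, 1650 and 0 with total counts alone, DESeq2 and without the 3-week library of either tissue, 1408 and 1720 without 8 weeks of hippocampus or cortex, and 8 to 87 without a 12-, 16- or 20-week library.

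Without the time factor as a replicate block, 4 members were called between the tissues, without Dcx (-0.46, adjusted p = 0.0825), and 1687 genes in all. With exposure time as a block in limma-voom, 0 members were called for UPM, the interaction and the slope, and 20 genes for the slope. Uncalled values changed sign as follows, and the cause was not tested. For UPM against control, Sox11 was -0.091 with total counts alone, -0.021 with limma-voom, -0.020 with the block, -0.25 with control against 8 to 20 weeks only and -0.25 with a term for the set. Eomes was -1.28 with limma-voom and -1.28 with the block, and Nes 0.012 with 8 to 20 weeks only and 0.012 with the set term. For long-term against short-term exposure in hippocampus, total counts alone gave Neurod1 0.022 and Igfbpl1 0.0091. There, 3 weeks against days gave Sox11 0.14 and Nes -0.42, and the set term 0.15 and -0.41. In cortex Dcx was -0.10 with 3 weeks against days and -0.10 with the set term. Between the tissues Sox2 was -0.033 with control and 8 to 20 weeks only, and Nes -0.082 with 3 days to 3 weeks only. Slopes with 8 to 20 weeks only were -0.0054 for Dcx and 0.14 for Sox11, and with the set term -0.0053 and 0.14.

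As each library was left out, UPM values ranged from -1.38 to -0.00050 for Mki67, -0.57 to -0.0072 for Dcx, -0.48 to -0.047 for Neurod1, -0.067 to 0.44 for Stmn1, -0.038 to 0.067 for Sox11, -0.047 to 0.0064 for Sox2 and -0.52 to 0.072 for Igfbpl1. Long-term against short-term values in hippocampus ranged from -0.041 to 0.87 for Nes and -0.78 to 0.26 for Igfbpl1, and in cortex from -0.48 to 0.053 for Neurod1 and -0.43 to 1.55 for Igfbpl1. Interaction values ranged from -0.23 to 0.30 for Neurod1, -1.76 to 0.22 for Igfbpl1 and -0.43 to 0.18 for Mki67. Slopes ranged from -0.037 to 0.10 for Stmn1 and -0.030 to 0.14 for Sox2. Depth limits Eomes, Igfbpl1 and Mki67, where 3 counts equal 0.329 to 0.564 CPM.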
